A study of Homo sapiens with 15 samples.

Results

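The set described here holds 51 genes of DNA replication and of the passage from G1 into S phase, chosen by symbol for their roles in origin licensing, the replication fork, nucleotide supply and E2F control. Each of the 51 was listed once among the 19604 coding gene entries of either expression table, and all 51 averaged at least 1 FPKM in both. FPKM, the unit the values were read in, are sequenced fragments scaled by transcript length and library size; the names of the tables mark quantile normalization by the authors. RNA was sequenced from OCI-AML5, an established human acute myeloid leukaemia cell line grown with serum and GM-CSF, in 15 libraries of 5 groups of 3. In the first table, cells were treated for 4 h with 1000 nM ARV-825, for 4 h with 1000 nM OTX015, or were left untreated (control, labelled 4 h). In the second table, cells were exposed for 72 h to RUNX1 shRNA or to shNT, a non-targeting shRNA. OTX015 blocks the bromodomains of BET proteins, which help RNA polymerase II elongate. ARV-825 joins OTX015 through a linker to a ligand of the ubiquitin ligase subunit cereblon, so that BET proteins are marked for degradation.

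DNA replication is prepared in G1, when the origin recognition complex (ORC) marks origins and CDC6 and CDT1 load rings of MCM2 to MCM7 there. At the start of S phase CDC45 and the GINS proteins turn the loaded ring into the active helicase, and polymerases alpha, delta and epsilon copy the strands with the clamp PCNA, its loader RFC and the single-strand binding protein RPA. E2F transcription factors, released from RB by cyclin-dependent kinases, switch on most of these genes, and cycling leukaemia cells keep them expressed.

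All libraries came from 1 line, and the series calls its samples biologic triplicates, so each p-value weighs a difference against the variation among these libraries, some of which may be technical. RUNX1 checked the shRNA labels: it had 37.2, 42.9 and 36.0 FPKM in the RUNX1 shRNA libraries, against 69.8, 72.2 and 69.8 FPKM in the shNT libraries. Titles of the RUNX1 shRNA libraries name Runx3, whereas RUNX3 had 28.0, 27.9 and 29.3 FPKM there, against 27.5, 28.5 and 25.0 FPKM in the shNT libraries, so the treatment label was followed. Of 6 myeloid markers, 5 or 6 reached a mean of 1 FPKM in every group, 1 of 3 T cell markers did in every group but RUNX1 shRNA, and no marker of erythroid, B, epithelial or fibroblast cells did. The myeloid markers' summed level was 177 to 192 FPKM with ARV-825 and 183 to 198 FPKM with OTX015, against 376 to 428 FPKM in control, and its part in the results on the replication genes was not tested. Summed FPKM per library ran from 554570 to 656995. In bulk RNA, fewer cells of a kind and less RNA per cell cannot be told apart.

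Before treatment the replication genes spanned a wide range of levels. Their mean FPKM in control cells ran from 3.06 for E2F7, a repressor of the E2F family, to 239 for PCNA, with a median of 20.8 over the 51 genes. With ARV-825 the range was 1.76 for E2F2 to 311 for PCNA, and with OTX015 it was 3.86 for E2F2 to 309 for PCNA. In the separately normalized shRNA table MCM4 was highest, at 231 FPKM with RUNX1 shRNA and 236 FPKM with shNT, and E2F7 was lowest, at 4.38 and 4.11 FPKM in the same order of groups. Of the members, 8 of 51 averaged under 10 FPKM with ARV-825, 7 with OTX015 and 7 in control.

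Within 4 h both BET compounds changed most of the replication genes, in both directions. ARV-825 raised 22 of the 51 (43.1%) and lowered 20 (39.2%) relative to control, by limma on log2(FPKM + 1) with Benjamini-Hochberg adjusted p under 0.05 over all 10819 genes tested. Over all genes tested 35.8% were called higher and 38.4% lower with ARV-825, so the members' shares were near the background. OTX015 raised 20 (39.2%) and lowered 19 (37.3%), beside 36.1% higher and 33.5% lower over all genes tested. The median log2 change of the members was 0.11 with ARV-825 and 0.01 with OTX015, beside −0.01 and 0.03 over all genes in the same order. Both comparisons use the same 3 control libraries, so their counts are not independent of each other. Members of the ORC, GINS, polymerase and RFC groups moved in both directions, whereas no MCM2 to MCM7 gene rose and no RPA gene fell.

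**Figure D1:**
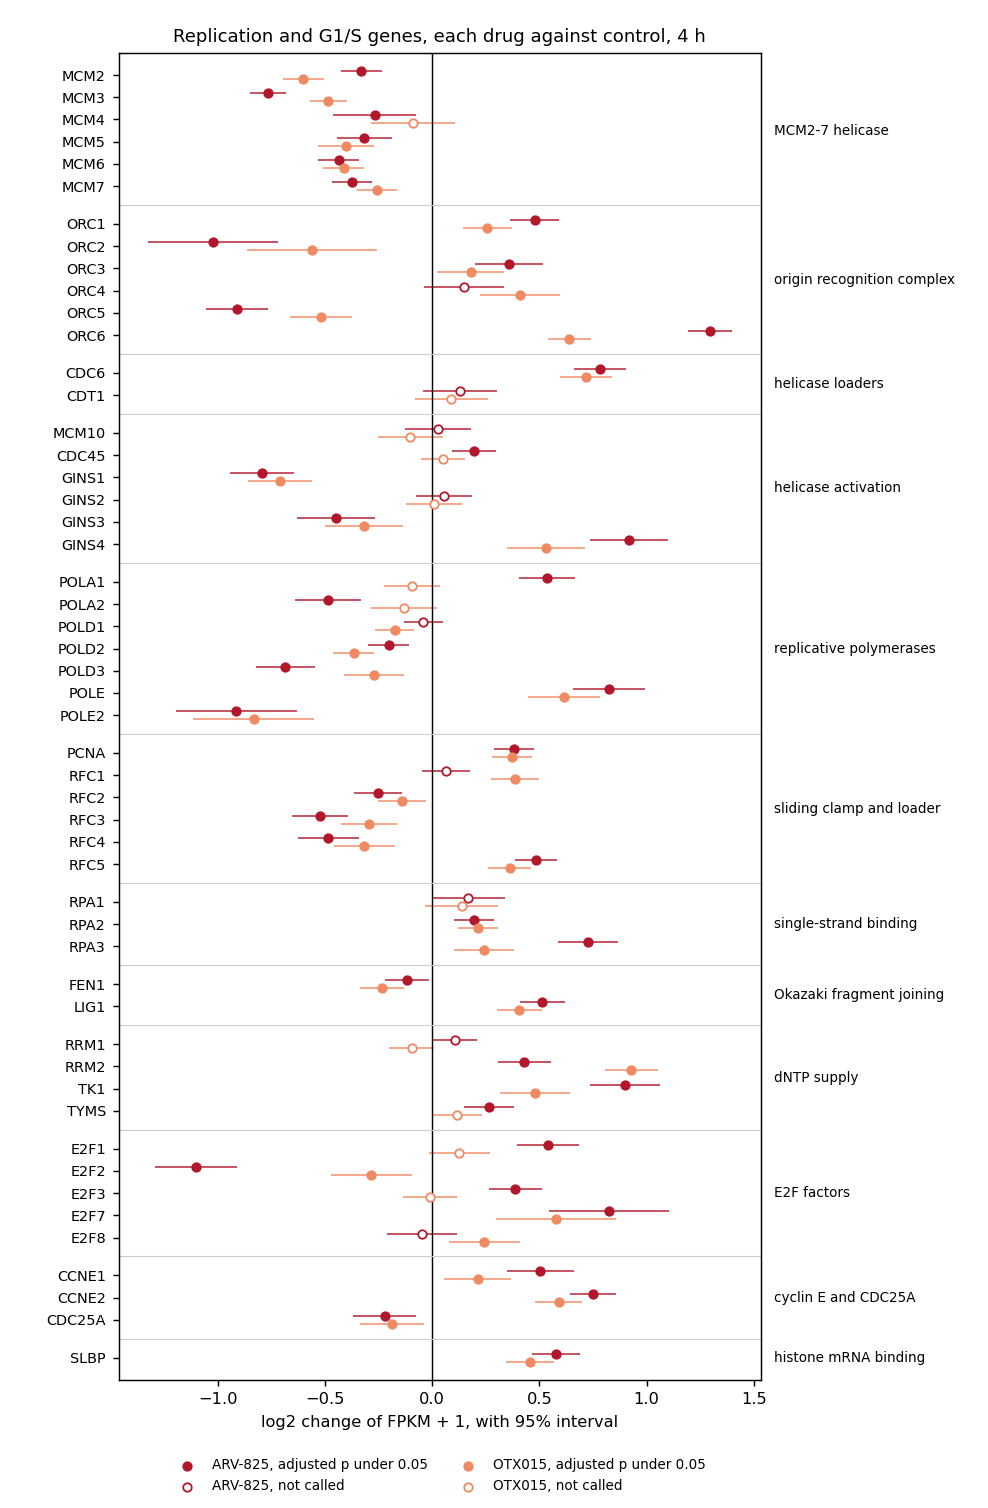
Log2 change of FPKM + 1 (x axis, no unit) of each of the 51 genes (y axis, grouped by role) for ARV-825 and OTX015 against control, with 95% intervals; filled points have an adjusted p under 0.05 and open points do not. ARV-825 changes run from −1.10 for E2F2 to 1.29 for ORC6, and the MCM2 to MCM7 points all lie left of 0.

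The promoters of the genes with the largest rise or fall in each comparison are shown because these genes mark the ends of the response. They cover 250 bases before and 50 bases after the gene start in the RefSeq table for GRCh38.p14, which held 43 of the 51 members. ORC6, at chr16:46689409-46689708 on the plus strand, rose most with ARV-825, and E2F2, at chr1:23531184-23531483 on the minus strand, fell most. With OTX015 the largest rise was that of RRM2, at chr2:10122489-10122788 on the plus strand, and the largest fall that of POLE2, at chr14:49688165-49688464 on the minus strand. CDC45, at chr22:19479670-19479969 on the plus strand, had the largest fall with RUNX1 shRNA, at −0.197 on the log2 scale, in a near tie with ORC2 at −0.197 and RFC2 at −0.195. Capitals mark matches to the motifs searched on both strands, namely CCAAT, the E-box CACGTG, and the E2F motif as TTTCCCGC, TTTCGCGC, TTTGCCGC or TTTGGCGC.
ORC6: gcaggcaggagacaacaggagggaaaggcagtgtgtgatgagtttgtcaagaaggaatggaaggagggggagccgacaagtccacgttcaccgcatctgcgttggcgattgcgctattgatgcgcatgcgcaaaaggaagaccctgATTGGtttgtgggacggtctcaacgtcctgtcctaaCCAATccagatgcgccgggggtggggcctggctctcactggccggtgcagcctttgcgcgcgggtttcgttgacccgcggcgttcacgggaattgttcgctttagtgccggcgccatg
E2F2: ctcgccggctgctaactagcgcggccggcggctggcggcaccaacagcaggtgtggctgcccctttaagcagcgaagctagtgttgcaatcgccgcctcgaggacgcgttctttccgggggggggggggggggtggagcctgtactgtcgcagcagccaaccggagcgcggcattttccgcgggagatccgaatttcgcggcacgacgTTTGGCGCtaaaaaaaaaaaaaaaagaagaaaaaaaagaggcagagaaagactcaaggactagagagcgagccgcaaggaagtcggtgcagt
RRM2: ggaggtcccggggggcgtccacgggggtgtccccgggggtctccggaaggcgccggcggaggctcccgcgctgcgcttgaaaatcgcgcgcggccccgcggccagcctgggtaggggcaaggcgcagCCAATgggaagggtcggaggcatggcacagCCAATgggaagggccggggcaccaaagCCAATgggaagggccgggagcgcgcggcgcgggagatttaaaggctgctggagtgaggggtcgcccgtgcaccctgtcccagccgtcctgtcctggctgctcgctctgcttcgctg
POLE2: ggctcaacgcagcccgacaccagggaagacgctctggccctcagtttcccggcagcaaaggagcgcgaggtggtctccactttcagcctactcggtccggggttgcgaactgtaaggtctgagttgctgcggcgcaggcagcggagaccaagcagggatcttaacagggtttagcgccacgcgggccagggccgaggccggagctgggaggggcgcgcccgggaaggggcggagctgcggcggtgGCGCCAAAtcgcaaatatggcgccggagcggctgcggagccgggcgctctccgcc
CDC45: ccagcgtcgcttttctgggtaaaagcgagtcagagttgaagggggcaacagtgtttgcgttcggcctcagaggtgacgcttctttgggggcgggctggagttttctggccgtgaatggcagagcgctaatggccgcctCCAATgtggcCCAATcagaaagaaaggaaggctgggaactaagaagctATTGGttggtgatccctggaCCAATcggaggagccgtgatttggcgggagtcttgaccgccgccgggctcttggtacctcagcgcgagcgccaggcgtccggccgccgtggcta

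Those sequences differ in the motifs they hold. E2F2 has 1 E2F match 42 bases upstream of its start and POLE2 has 1 on the other strand 5 bases upstream, and neither window has a CCAAT match. RRM2 has 3 CCAAT matches, at 123, 93 and 66 bases upstream, ORC6 has 2 and CDC45 has 4. Only the first listed promoter of each gene was searched, so other starts of a gene were not covered. Across the 43 member promoters 22 (51.2%) held an E2F match. The shares were 5.72% of 8412 promoters of genes tested in the drug libraries and 3.33% of 27305 promoters, 1 for each gene listed. CCAAT was found in 25 (58.1%) of member promoters, against 37.3% and 35.7%, and the E-box in 4 (9.30%), against 10.7% and 7.43%. E2F matches stood in 9 of 18 promoters of members that rose with ARV-825 and in 11 of 17 of those that fell. CCAAT stood in 13 of the same 18 and in 7 of the same 17. A match is a run of letters and not a measured binding site, and these shares were not tested.

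The MCM2 to MCM7 genes, which encode the ring at the core of the replicative helicase, were lower with both compounds. All 6 fell with ARV-825 and 5 of 6 fell with OTX015, with median log2 changes of −0.35 and −0.41. Of all genes tested, 38.4% were called lower with ARV-825 and 33.5% with OTX015, and these 6 were not tested as a set. MCM3 fell most with ARV-825, to 46.0, 47.6 and 46.4 FPKM, with 58.6, 56.3 and 55.9 FPKM after OTX015 and 78.7, 82.6 and 78.8 FPKM in control. The 3 groups did not overlap, and the log2 change was −0.77 ± 0.039 (SE) with ARV-825 (limma adjusted p = 2.75e-08) and −0.48 ± 0.039 with OTX015 (adjusted p = 1.21e-06). MCM2 was ordered the other way between the compounds, with 57.0, 56.2 and 56.4 FPKM after ARV-825, 45.9, 49.1 and 45.2 FPKM after OTX015, and 69.1, 73.3 and 71.6 FPKM in control. Its log2 change was −0.33 ± 0.043 with ARV-825 and −0.60 ± 0.043 with OTX015 (limma adjusted p = 3.60e-05 and 5.08e-07). MCM5, MCM6 and MCM7 changed by −0.44 to −0.32 with ARV-825 and by −0.41 to −0.26 with OTX015. MCM4, the most abundant of the 6, had 189.8, 188.8 and 154 FPKM with ARV-825, 193, 196 and 212 FPKM with OTX015, and 193, 232 and 217 FPKM in control. Its change of −0.27 with ARV-825 passed (limma adjusted p = 0.0172), but lost the call without ARV-825 replicate 3 (adjusted p = 0.0621) or without control replicate 2 (adjusted p = 0.0733). The summed level of the 6 genes was 526, 520 and 489 FPKM with ARV-825 and 534, 539 and 545 FPKM with OTX015, against 626, 700 and 667 FPKM in control. Exons of MCM2 overlap those of TPRA1, and exons of MCM7 those of AP4M1, and the strand of the libraries is not stated, so reads of such pairs cannot be told apart.

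ORC genes, whose proteins sit together on origins, moved apart. With ARV-825, ORC1, ORC3 and ORC6 rose, ORC2 and ORC5 fell, and ORC4 was not called. ORC6, a peripheral subunit, had 42.1, 42.7 and 43.3 FPKM with ARV-825 and 26.4, 27.8 and 26.0 FPKM with OTX015, against 16.5, 16.4 and 17.6 FPKM in control. All 3 groups stood apart, with log2 changes of 1.29 ± 0.046 for ARV-825 and 0.64 ± 0.046 for OTX015 (limma adjusted p = 2.52e-09 and 5.12e-07). ORC2, a core subunit, had 7.46, 6.62 and 7.07 FPKM with ARV-825, 8.87, 13.5 and 8.54 FPKM with OTX015, and 14.2, 15.3 and 16.7 FPKM in control. OTX015 replicate 2 lay close to control, and the log2 changes were −1.02 ± 0.14 with ARV-825 and −0.56 ± 0.14 with OTX015 (limma adjusted p = 4.75e-05 and 0.00380). ORC5, another core subunit, had 5.01, 4.63 and 4.78 FPKM with ARV-825, 6.54, 7.10 and 6.22 FPKM with OTX015, and 10.1, 9.83 and 9.78 FPKM in control. It fell by 0.91 with ARV-825 and by 0.52 with OTX015 on the log2 scale (limma adjusted p = 3.56e-07 and 3.74e-05). ORC1, the subunit whose protein cycles with G1 in human cells, rose by 0.48 and 0.26 on the log2 scale with ARV-825 and OTX015. ORC3 rose by 0.36 with ARV-825 and by 0.18 with OTX015, where the call (limma adjusted p = 0.0435) was lost without OTX015 replicate 1 or 2 or control replicate 1 or 2 (adjusted p = 0.0722 to 0.173). ORC4 rose by 0.41 with OTX015 alone, and its exons overlap those of ACVR2A and MBD5. As a description chosen after the values were seen, the ratio of ORC6 to ORC2 FPKM was 5.64, 6.44 and 6.12 with ARV-825 and 2.97, 2.06 and 3.05 with OTX015, against 1.16, 1.07 and 1.05 in control.

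**Figure D2:**
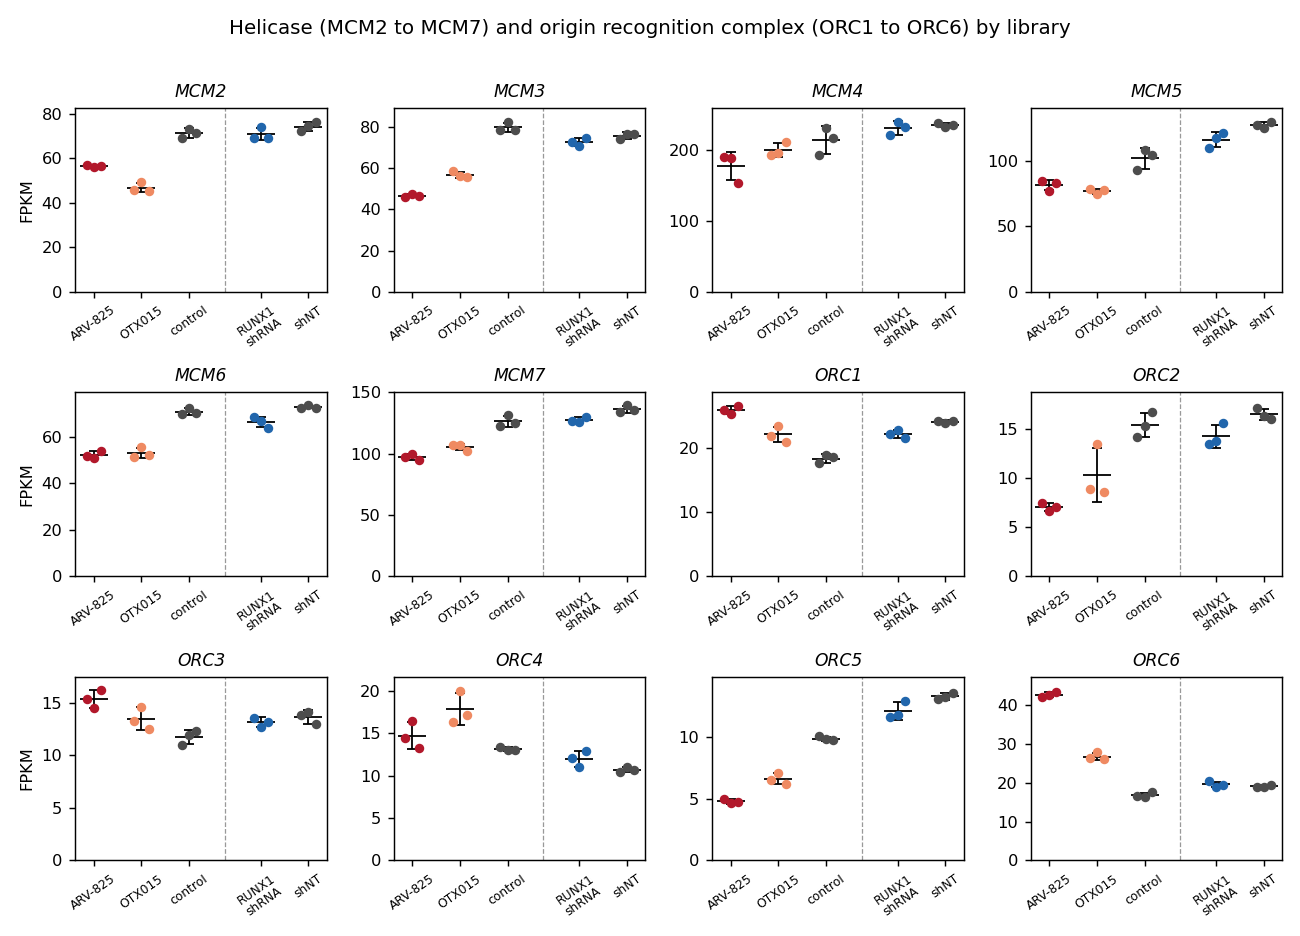
FPKM (y axis, from 0) of MCM2 to MCM7 and ORC1 to ORC6 in each library (points) of the 5 groups (x axis), with mean and SD as bars; the dashed line parts the 2 separately normalized tables. ORC6 is near 43 FPKM in the ARV-825 libraries, against under 18 FPKM in control, while ORC2 and ORC5 lie lower with ARV-825 than in control.

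Of the loaders, CDC6 rose with both compounds and CDT1 was called with neither. CDC6, the ATPase that brings the MCM ring to ORC, had 37.0, 35.7 and 37.7 FPKM with ARV-825 and 35.4, 34.2 and 35.8 FPKM with OTX015, against 19.3, 22.1 and 21.6 FPKM in control. Treated and control libraries did not overlap, and the log2 changes were 0.78 ± 0.055 and 0.72 ± 0.055 (limma adjusted p = 2.89e-07 and 8.17e-07). CDT1, its loading partner, averaged 25.8 ± 2.45 FPKM with ARV-825, 25.1 ± 2.33 FPKM with OTX015 and 23.5 ± 0.664 FPKM in control (SD, n = 3 each).

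GINS subunits, which form a complex of 4 proteins with the helicase, also split. GINS4 had 26.6, 23.9 and 30.3 FPKM with ARV-825 and 21.6, 20.3 and 19.1 FPKM with OTX015, against 14.1, 12.9 and 14.3 FPKM in control. GINS1 had 7.72, 7.08 and 7.75 FPKM with ARV-825 and 8.05, 7.64 and 8.41 FPKM with OTX015, against 12.7, 14.4 and 14.2 FPKM in control. Thus GINS4 rose by 0.92 ± 0.082 and 0.53 ± 0.082 on the log2 scale with ARV-825 and OTX015 (limma adjusted p = 1.92e-06 and 0.000170), whereas GINS1 fell by 0.79 and 0.71 (adjusted p = 1.35e-06 and 4.54e-06). GINS3 fell by 0.45 and 0.32, and GINS2 was called with neither, at 12.3 ± 0.397, 11.9 ± 0.521 and 11.9 ± 0.631 FPKM with ARV-825, OTX015 and control (SD, n = 3 each). CDC45, which binds MCM and GINS, rose by 0.19 with ARV-825 and was not called with OTX015. MCM10, a factor that helps start the fork, was called with neither. The ratio of GINS4 to GINS1 FPKM, also picked after seeing the values, was 3.45, 3.38 and 3.91 with ARV-825 and 2.68, 2.66 and 2.27 with OTX015, against 1.11, 0.895 and 1.00 in control.

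Of the 7 polymerase genes, 2 rose and 4 fell with ARV-825, and 1 rose and 4 fell with OTX015. The shares of all genes tested were 35.8% higher and 38.4% lower with ARV-825, and 36.1% higher and 33.5% lower with OTX015. POLE, the catalytic subunit of epsilon, which copies the leading strand, had 36.2, 38.6 and 31.4 FPKM with ARV-825 and 28.6, 29.3 and 33.2 FPKM with OTX015, against 19.6, 19.4 and 19.3 FPKM in control. POLE2, its partner subunit, had 4.81, 4.38 and 5.14 FPKM with ARV-825 and 6.46, 4.42 and 4.62 FPKM with OTX015, against 11.3, 9.83 and 8.65 FPKM in control. Neither gene's treated libraries overlapped control, with log2 changes of 0.83 ± 0.076 and 0.61 ± 0.076 for POLE (limma adjusted p = 2.37e-06 and 3.17e-05) and −0.91 ± 0.13 and −0.83 ± 0.13 for POLE2 (adjusted p = 6.39e-05 and 0.000159). The POLE to POLE2 ratio, another one chosen afterwards, was 7.54, 8.81 and 6.10 with ARV-825 and 4.43, 6.64 and 7.18 with OTX015, against 1.74, 1.98 and 2.24 in control. POLD3, an accessory subunit of delta, had 9.44, 10.2 and 10.6 FPKM with ARV-825 and 14.7, 13.1 and 13.5 FPKM with OTX015, against 16.5, 17.4 and 16.5 FPKM in control. It fell by 0.69 and 0.27 on the log2 scale with ARV-825 and OTX015 (limma adjusted p = 2.26e-06 and 0.00260). POLD2, a further delta subunit, fell by 0.20 and 0.37, and POLD1, the catalytic one, fell by 0.17 with OTX015 alone. POLA1, the catalytic subunit of alpha, had 15.1, 15.8 and 16.5 FPKM with ARV-825 and 9.59, 10.1 and 9.90 FPKM with OTX015, against 10.0, 11.2 and 10.5 FPKM in control. It rose by 0.54 with ARV-825 (limma adjusted p = 9.49e-06) and was not called with OTX015, where the 95% interval of its change was −0.22 to 0.04. POLA2, the accessory subunit of alpha, fell by 0.49 with ARV-825 (limma adjusted p = 7.66e-05) and was not called with OTX015. Of the accessory subunits outside the 51 genes, named here after their values were seen, POLD4 rose by 0.27 and 0.33 with ARV-825 and OTX015 (limma adjusted p = 0.0356 and 0.0141), and POLE4 was called with neither. POLE3 rose by 0.10 with ARV-825 (limma adjusted p = 0.0336) and fell by 0.41 with OTX015 (adjusted p = 3.98e-06). Exons of POLA2 and POLD1 overlap those of other coding genes.

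PCNA, the clamp that tethers polymerases to DNA, was the most abundant member and rose with both compounds. It had 317, 306 and 311 FPKM with ARV-825 and 306, 318 and 304 FPKM with OTX015, against 234, 248 and 233 FPKM in control. The log2 changes were 0.38 ± 0.042 and 0.37 ± 0.042 (limma adjusted p = 9.58e-06 and 1.55e-05). Of the RFC subunits, which open the clamp, RFC5 rose with both and RFC2, RFC3 and RFC4 fell with both. RFC3 had 15.2, 13.3 and 14.1 FPKM with ARV-825 and 17.5, 16.04 and 16.9 FPKM with OTX015, against 21.6, 20.3 and 20.5 FPKM in control, and fell by 0.52 and 0.29 on the log2 scale. RFC1, the large subunit, rose by 0.39 with OTX015 and was not called with ARV-825. RFC2 had a change of −0.14 with OTX015 (limma adjusted p = 0.0293), whose call was lost without OTX015 replicate 3, control replicate 2 or control replicate 3 (adjusted p = 0.0618 to 0.117). PCNA, RFC3 and RFC5 have named pseudogenes and exons of RFC4 and RFC5 overlap other coding genes, so their levels are uncertain where reads could be shared.

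RPA2 and RPA3 rose with both compounds and no RPA gene was called lower. RPA3, the smallest subunit of this trimer, had 34.6, 36.0 and 32.5 FPKM with ARV-825 and 23.4, 24.8 and 24.7 FPKM with OTX015, against 18.6, 21.6 and 21.1 FPKM in control. It rose by 0.73 and 0.24 on the log2 scale (limma adjusted p = 1.49e-06 and 0.00520), and its exons overlap those of UMAD1. RPA2 rose by 0.20 and 0.21, and RPA1 was called with neither. LIG1, which seals Okazaki fragments, rose by 0.51 and 0.41 with ARV-825 and OTX015. FEN1, which trims their flaps, fell by 0.12 with ARV-825 and by 0.23 with OTX015. The ARV-825 call of FEN1 (limma adjusted p = 0.0372) was lost without ARV-825 replicate 1 or 2 or any 1 control library (adjusted p = 0.0521 to 0.130).

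Among the 4 nucleotide supply genes, 3 rose with ARV-825, 2 rose with OTX015 and the rest were not called. The shares of all genes tested that rose were 35.8% with ARV-825 and 36.1% with OTX015, and these 4 were not tested as a set. RRM2, the small subunit of ribonucleotide reductase, had 190.5, 175 and 189 FPKM with ARV-825 and 252, 278 and 254 FPKM with OTX015, against 129.7, 138 and 143 FPKM in control. OTX015 libraries were highest and no groups overlapped, with log2 changes of 0.43 ± 0.056 for ARV-825 and 0.93 ± 0.056 for OTX015 (limma adjusted p = 3.52e-05 and 1.39e-07). RRM1, the large subunit of the same enzyme, averaged 63.0 ± 2.35 FPKM with ARV-825, 54.7 ± 2.08 FPKM with OTX015 and 58.5 ± 2.46 FPKM in control (SD, n = 3 each). It was called with neither against control, but was called higher with ARV-825 than with OTX015. With median-ratio rescaling RRM1 was called higher with ARV-825 (log2 change 0.119, limma adjusted p = 0.0213) and lower with OTX015 (−0.124, adjusted p = 0.0191). TK1, a thymidine salvage kinase, had 35.7, 34.5 and 39.7 FPKM with ARV-825 and 28.3, 28.9 and 24.3 FPKM with OTX015, against 20.0, 19.2 and 18.3 FPKM in control. It rose by 0.90 and 0.48 on the log2 scale (limma adjusted p = 1.01e-06 and 0.000163). TYMS, which makes thymidylate, rose by 0.27 with ARV-825 and was not called with OTX015. RRM2 and TYMS have named pseudogenes, and exons of TYMS overlap those of ENOSF1.

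E2F2 and E2F1, both activators of the E2F family, moved in opposite directions with ARV-825. E2F2 had 1.63, 1.80 and 1.86 FPKM with ARV-825 and 4.00, 3.67 and 3.91 FPKM with OTX015, against 4.34, 5.51 and 4.96 FPKM in control. E2F1 had 18.4, 18.9 and 20.1 FPKM with ARV-825 and 14.8, 14.2 and 13.4 FPKM with OTX015, against 11.8, 13.3 and 13.5 FPKM in control. ARV-825 libraries stood apart from the other 6 for both genes, below them for E2F2 and above them for E2F1. E2F2 fell by 1.10 ± 0.086 with ARV-825 (limma adjusted p = 6.77e-07) and by 0.28 ± 0.086 with OTX015 (adjusted p = 0.0123), where the call was lost without control replicate 2 (adjusted p = 0.0611). E2F1 rose by 0.54 ± 0.065 with ARV-825 (limma adjusted p = 1.94e-05) and was not called with OTX015, where its change was 0.13 (95% interval −0.02 to 0.27). E2F3, the remaining activator, rose by 0.39 with ARV-825 and was not called with OTX015. E2F7, a repressor, had 5.80, 6.999 and 5.71 FPKM with ARV-825 and 4.35, 4.74 and 6.09 FPKM with OTX015, against 2.49, 3.22 and 3.47 FPKM in control, and rose by 0.82 and 0.58 on the log2 scale. E2F8, the other repressor, rose by 0.24 with OTX015 alone.

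Cyclin E genes, whose products activate CDK2 at the G1/S boundary, both rose. CCNE2 had 28.6, 26.7 and 28.5 FPKM with ARV-825 and 24.9, 25.5 and 24.3 FPKM with OTX015, against 15.5, 16.8 and 16.4 FPKM in control. CCNE1 had 12.7, 14.6 and 14.3 FPKM with ARV-825 and 11.5, 11.2 and 10.7 FPKM with OTX015, against 9.69, 8.73 and 10.1 FPKM in control. Log2 changes were 0.75 and 0.59 for CCNE2 (limma adjusted p = 1.79e-07 and 1.62e-06) and 0.51 and 0.21 for CCNE1 (adjusted p = 6.79e-05 and 0.0204). The OTX015 call of CCNE1 was lost without OTX015 replicate 1 (adjusted p = 0.0700) or control replicate 2 (adjusted p = 0.0880). CDC25A, the phosphatase that frees CDK2 from its inhibitory phosphates, fell by 0.22 and 0.19 on the log2 scale. That fall was lost with ARV-825 without ARV-825 replicate 1 (limma adjusted p = 0.0527), and with OTX015 without any 1 OTX015 library or control replicate 1 or 3 (adjusted p = 0.0515 to 0.101). SLBP, which binds the stem-loop of replication-dependent histone mRNAs, had 101, 94.0 and 100.2 FPKM with ARV-825 and 84.7, 96.4 and 90.9 FPKM with OTX015, against 64.7, 66.3 and 66.1 FPKM in control. It rose by 0.58 and 0.46 (limma adjusted p = 1.68e-06 and 1.37e-05). Exons of CCNE2 overlap those of INTS8.

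**Figure D3:**
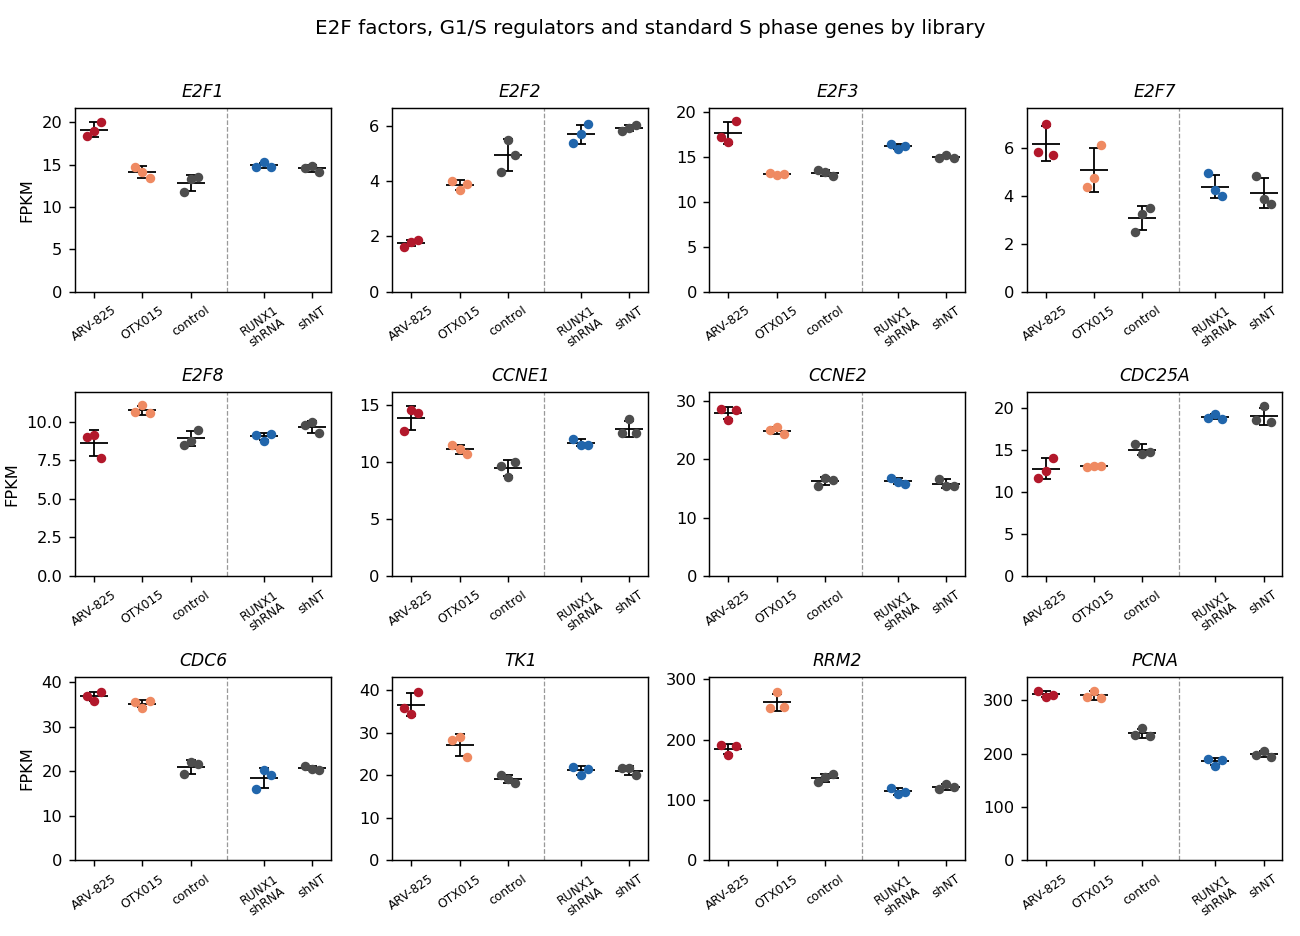
FPKM (y axis, from 0) of E2F factors, cyclin E genes, CDC25A, CDC6, TK1, RRM2 and PCNA in each library (points) of the 5 groups (x axis), with mean and SD as bars; the dashed line parts the 2 separately normalized tables. E2F2 is lowest with ARV-825 at under 1.9 FPKM, and RRM2 is highest with OTX015 at over 252 FPKM.

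The compounds share the OTX015 structure, which ARV-825 carries joined to a linker and a cereblon ligand, and were compared at the same dose and time in 51 genes. ARV-825 and OTX015 differed in 31 of them, 18 higher (35.3%) and 13 lower (25.5%) with ARV-825, beside 24.7% higher and 33.4% lower over all genes tested. E2F2 was lower with ARV-825 by 0.82 ± 0.086 on the log2 scale (limma adjusted p = 2.49e-05), the largest fall. ORC6 was higher by 0.66 ± 0.046 (adjusted p = 2.44e-06) and POLA1 by 0.63 ± 0.059 (adjusted p = 1.21e-05). RRM2 was lower by 0.50 ± 0.056 (limma adjusted p = 3.68e-05), with the higher level after OTX015. RPA3, TK1, E2F1, E2F3 and GINS4 were higher with ARV-825 by 0.48, 0.42, 0.41, 0.40 and 0.39, and ORC2, POLD3, ORC5, POLA2 and RFC1 had differences of −0.46, −0.41, −0.39, −0.36 and −0.32. In the helicase ring MCM3 was lower by 0.28 and MCM2 higher by 0.27 with ARV-825. CDC6 differed by 0.06 (95% interval −0.06 to 0.19), PCNA by 0.01 (−0.08 to 0.10), GINS1 by −0.08 (−0.23 to 0.07) and MCM6 by −0.02 (−0.12 to 0.07), none of them called. The RRM2 to RRM1 and POLA1 to POLA2 ratios were also chosen after the values were seen. The first was 3.02, 2.89 and 2.89 with ARV-825, 4.57, 4.93 and 4.85 with OTX015 and 2.32, 2.27 and 2.44 in control. The second was 0.732, 0.734 and 0.718, then 0.348, 0.353 and 0.353, then 0.367, 0.339 and 0.326 in the same groups. Of the 31 calls, 22 held under every alternative in which the gene was fitted. E2F2 is among them, but was left out by the filter at a mean of 5 FPKM. MCM7, ORC4, CDC45, POLD1, POLE, RFC4, RFC5, TYMS and CCNE2 each lost the call without at least 1 of the 6 treated libraries, with limma adjusted p from 0.0511 to 0.156. The libraries of POLE, RFC4 and ORC4 also overlapped between the compounds.

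**Figure D4:**
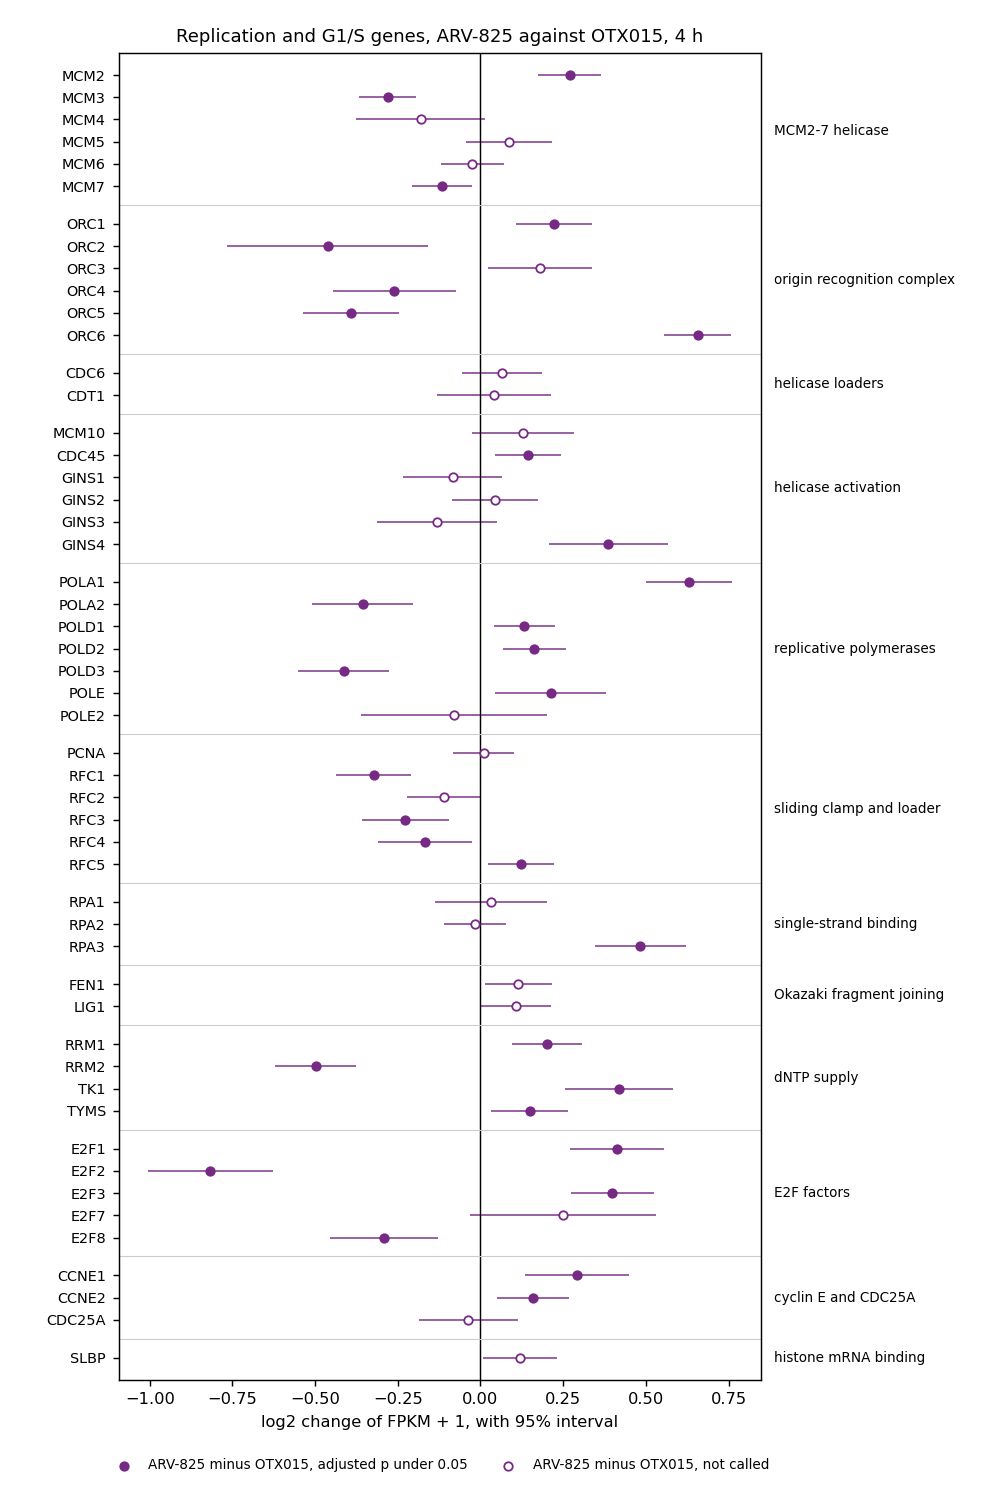
Log2 difference of FPKM + 1, ARV-825 minus OTX015 (x axis, no unit), of the 51 genes grouped by role (y axis), with 95% intervals; filled points have an adjusted p under 0.05 and open points do not. E2F2 lies farthest left at −0.82, and ORC6 and POLA1 farthest right at 0.66 and 0.63.

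RUNX1 shRNA for 72 h changed few of these genes. With RUNX1 shRNA 10 of 51 (19.6%) were lower than with shNT and 0 were higher by limma. Over the 10925 genes tested 13.8% were called lower and 13.5% higher. At an unadjusted limma p under 0.05, 18 members were lower and 3 higher, and 4371 of all 10925 genes passed in either direction. The 10 changes were small, at −0.20 to −0.09 on the log2 scale, and the members' median was −0.07, beside −0.01 over all genes. CDC45, the helicase activator, fell to 22.7, 22.4 and 23.2 FPKM with RUNX1 shRNA, against 25.3, 27.5 and 26.1 FPKM with shNT (log2 change −0.20 ± 0.041, limma adjusted p = 0.00902). POLD2, the delta subunit, had 65.9, 64.1 and 66.2 FPKM with RUNX1 shRNA, against 70.8, 72.3 and 72.0 FPKM with shNT (adjusted p = 0.00908). RFC2, of the clamp loader, had 33.3, 31.3 and 29.8 FPKM with RUNX1 shRNA, against 35.9, 36.8 and 35.8 FPKM with shNT (adjusted p = 0.0121). These 3 kept the call under every alternative tried. The groups did not overlap in any of the 10 called members, and overlapped in 32 of the 41 not called. The matching share over all genes tested was not taken, so this separation adds no support to the calls.

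The other 7 lower genes were MCM5, MCM6, MCM7, ORC2, GINS2, RFC5 and TYMS, with limma adjusted p from 0.0169 to 0.0455. Each lost the call without at least 1 library. The count of lower genes over all members, 10 as reported, also depended on single libraries. It was 6 without RUNX1 shRNA replicate 1, 6 without replicate 2, and 5 without any 1 of the shNT libraries. Without replicate 2 only 4 of the 10 kept the call, and ORC1 and CDC6 were newly lower. Without replicate 3, 9 of the 10 kept it, and ORC5 and POLD1 were newly lower. POLE was called higher without RUNX1 shRNA replicate 1 (limma adjusted p = 0.0437) and ORC4 without replicate 2 (adjusted p = 0.0328). MCM6 had 68.5, 66.6 and 63.9 FPKM with RUNX1 shRNA, against 72.5, 73.5 and 72.3 FPKM with shNT. The summed level of MCM2 to MCM7 was 669, 695 and 691 FPKM with RUNX1 shRNA, against 718, 723 and 726 FPKM with shNT, so the groups did not overlap. This sum was not tested. Summed FPKM over all genes was 596052, 554570 and 590847 with RUNX1 shRNA, against 645924, 592057 and 651372 with shNT. No E2F factor and no cyclin E gene was called by limma, while at an unadjusted p under 0.05 E2F3 was higher and CCNE1 lower. E2F1 averaged 14.9 ± 0.307 FPKM with RUNX1 shRNA and 14.6 ± 0.376 FPKM with shNT, and RRM2 115 ± 5.49 FPKM and 122 ± 4.14 FPKM in the same groups (SD, n = 3 each). PCNA had 190.7, 178 and 188 FPKM with RUNX1 shRNA, against 198, 206 and 195 FPKM with shNT, and missed the threshold (log2 change −0.10, limma adjusted p = 0.0558). MCM2, CDC6 and CCNE1 had log2 changes of −0.07, −0.16 and −0.14 and were not called.

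**Figure D5:**
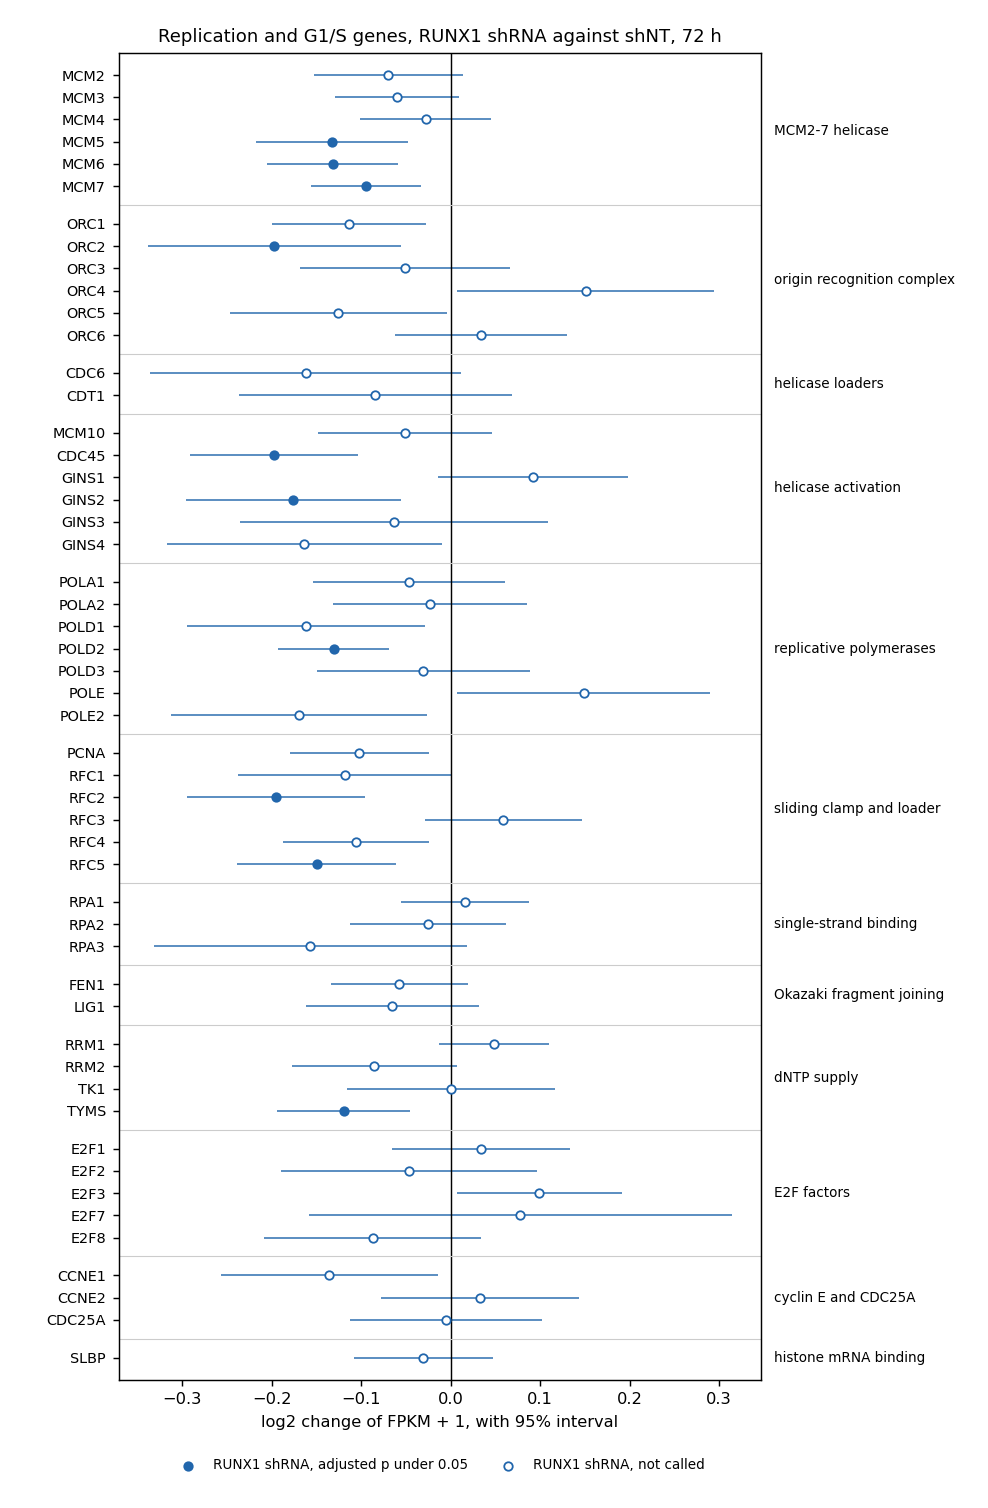
Log2 change of FPKM + 1, RUNX1 shRNA against shNT (x axis, no unit), of the 51 genes grouped by role (y axis), with 95% intervals; filled points have an adjusted p under 0.05 and open points do not. The 10 filled points lie between −0.20 and −0.09, and the axis is narrower than in the plots of the compounds.

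Other genes of the pathway, outside the 51, moved in both directions as well. Of 26 other replication factors tested, 11 rose (42.3%) and 9 fell (34.6%) with ARV-825, and 10 rose (38.5%) and 8 fell (30.8%) with OTX015. Over all genes tested 35.8% rose and 38.4% fell with ARV-825, and 36.1% rose and 33.5% fell with OTX015. The shares of this list were near that background. ASF1B, a histone chaperone of the fork, rose to 99.4 FPKM with ARV-825 and 77.9 FPKM with OTX015, against 35.4 FPKM in control (log2 changes 1.46 and 1.12). CDC7, the kinase that triggers the loaded helicase, fell to 3.64 FPKM with ARV-825 and 5.93 FPKM with OTX015, against 9.48 FPKM in control (log2 changes −1.17 and −0.60). TIPIN, a fork protection protein, fell by 1.01 and 0.59, and TICRR, which helps load CDC45, rose by 0.97 and 0.48 with ARV-825 and OTX015. CLSPN, a checkpoint adaptor at the fork, rose by 0.44 with ARV-825 and 0.80 with OTX015, and DONSON by 0.77 and 0.62. DSCC1, of an alternative clamp loader, fell by 0.70 with ARV-825 and by 0.71 with OTX015. Between the compounds MCM9, a relative of the MCM ring, was lower with ARV-825, at 1.22 FPKM, against 3.17 FPKM with OTX015. Of 8 other nucleotide genes, 4 rose (50%) and 3 fell (37.5%) with ARV-825, and 2 rose (25%) and 3 fell (37.5%) with OTX015. RRM2B, a second small subunit of the reductase, rose by 0.75 and 0.55.

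Of 14 E2F partners and pocket proteins, 4 were higher (28.6%) and 9 lower (64.3%) with ARV-825. With OTX015, 4 were higher (28.6%) and 8 lower (57.1%). Over all genes tested 35.8% were higher and 38.4% lower with ARV-825, and 36.1% higher and 33.5% lower with OTX015. The list was not tested as a set. E2F4, a repressive E2F, fell to 27.7 FPKM with ARV-825 and 33.7 FPKM with OTX015, against 45.1 FPKM in control. Of the MuvB subunits LIN9 fell by 0.95 and 0.35, while LIN52 rose by 0.99 and 0.42 with ARV-825 and OTX015. E2F5 fell by 0.78 with ARV-825 and by 0.91 with OTX015. Among 15 G2/M genes 5 rose (33.3%) and 6 fell (40%) with ARV-825, and 5 rose and 5 fell (33.3% each) with OTX015. These shares were near those over all genes tested. FOXM1, a regulator of mitotic genes, fell by 1.01 and 0.57, PLK1 by 0.74 and 0.42 and AURKA by 0.77 and 0.42 with ARV-825 and OTX015, while CDK1 rose by 0.59 and 0.31. With RUNX1 shRNA the G2/M list had 6 of 15 (40%) higher and 0 lower by limma. Over all genes tested 13.5% were called higher and 13.8% lower. At an unadjusted limma p under 0.05, 8 of the list were higher and 0 lower, and 4371 of all 10925 genes passed in either direction. The list was not tested as a set. MKI67, CENPE, CDK1 and AURKB were higher by 0.24, 0.21, 0.19 and 0.16. In that comparison 2 of 26 other replication factors rose and 1 fell, 0 of 8 nucleotide genes were called by limma (1 higher at an unadjusted p under 0.05), and 1 of 14 E2F partners rose and 3 fell. CLSPN rose by 0.27 and LIN54 fell by 0.30.

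Gene span differed in median between the members that rose and those that fell. The median gene span was 19.6 kb for the 22 members that rose with ARV-825, 28.3 kb for the 20 that fell and 44.2 kb for the 9 not called, beside 31.7, 31.4 and 33.0 kb over all genes with the same calls. With OTX015 the medians were 19.6 kb, 31.3 kb and 42.5 kb, beside 34.8, 29.2 and 31.8 kb. The spans of the groups overlapped widely, from 8.75 to 303 kb among those that rose and from 4.61 to 175 kb among those that fell with ARV-825, and these medians were not tested. In the GENCODE annotation exons of 14 members overlap another coding gene, GINS2, RPA1, FEN1 and RRM2 among them, and 9 members have named pseudogenes, POLD2, RPA2, FEN1 and E2F3 among them.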

How the data were processed

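RNA-seq of OCI-AML5 cells was analysed from 2 tables that the authors deposited, 9 libraries in the drug table and 6 in the shRNA table. The deposited values were read as FPKM per coding gene, from Cufflinks 2.0 after TopHat2 2.0 alignment to hg19, per the submitters' processing notes; the tables name no unit, annotation or strand. Their names mark quantile normalization, and library quantiles are close to but not identical within a table. Depth is unknown, and such relative values hide any change in the total RNA of a cell.

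Of 19620 entries in either table, 16 pseudoautosomal Y copies were left out. The deposited FPKM were changed to log2(FPKM + 1), and genes averaging 1 FPKM or more were fitted with limma 3.58.1 in R 4.3.3 (lmFit, eBayes with trend, two-sided), with Benjamini-Hochberg adjustment over all genes tested. A gene was called at adjusted p under 0.05. Drug contrasts shared 1 fit of 9 libraries, and the shRNA contrast had its own. Fold changes on this scale understate changes of low genes. The fit was also run on simulated data. The changes added there were larger than those of the members called with RUNX1 shRNA, so the simulation does not cover these calls.

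Members, gene lists and markers were chosen with earlier results of these data known. Values in every library are given for PCNA, MCM2, CDC6, CCNE1, E2F1 and RRM2, and for called members with a log2 change of at least 0.5, at most 10 per direction. Some further members are given per library where a call or a complex turned on them. From other lists at most 4 genes per comparison were eligible. Gene spans and exon overlaps came from the GENCODE annotation, promoters from RefSeq, using the first listed for each gene. Alternatives tried were other pseudocounts, filters, scalings and eBayes settings, a fit on 2 groups, a replicate block and each library left out.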

Additional observations from a re-analysis of the deposited data

How the results depend on the processing

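No called member reversed under any alternative, and no scaling moved the median of all genes by 0.1 on the log2 scale. Between the compounds, 42.5% of all called genes were higher with ARV-825 as reported, and 49.6% with median-ratio or with quantile rescaling. Both rescalings lost the calls of MCM7 and RFC4 between the compounds and gained those of ORC3, FEN1, LIG1 and SLBP. Counts of members called with the compounds stayed within 1.5 times. For RUNX1 shRNA, 6 members were lower with no filter and 5 with eBayes without trend, against 10 as reported; the cause was not tested. Leaving out 1 library gave 5 to 11 lower and 0 to 1 higher there. PCNA between the compounds, not called, ran from −0.00332 to 0.0295 with 1 library left out, below 0 without ARV-825 replicate 1 and without OTX015 replicate 3.

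Replicate numbers did not clearly pair the samples. Same-numbered libraries' deviations correlated at −0.321 to 0.0613 over 9 pairs in the drug table and at −0.00304 to 0.0612 over 3 pairs in the shRNA table. Differently numbered libraries' deviations correlated at −0.224 to 0.409 over 18 pairs and at −0.0704 to 0.0222 over 6 pairs. The highest value, 0.409, was between ARV-825 replicate 2 and OTX015 replicate 3, and its source was not tested. With the replicate block, 22 members rose and 19 fell with ARV-825, 19 and 17 with OTX015, 15 were higher and 12 lower with ARV-825 than with OTX015, and 0 rose and 8 fell with RUNX1 shRNA.

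With no read counts, the precision of low genes such as E2F2 and E2F7 cannot be stated beyond the spread of 3 libraries.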
